A study of Mus musculus with 18 samples.

Results

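Among 18 mouse mammary tumors profiled by bulk RNA sequencing, 14 carried a very high level of Met transcripts and 4 did not. A tumor was placed in the Met-high class when Met was above 1000 CPM (CPM, the Met count per 1000000 counts of the tumor), and in the Met-low class otherwise. The classes therefore come from a measured value and not from a label, and the Met level itself is described below without a test. The Met-high class held 5 MaP R172H/-, 3 MaP R245W/- and 6 MaP -/- tumors, and the Met-low class held 2 MaP R172H/- and 2 MaP R245W/- tumors. The question was which other genes differed between these classes.

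The tumors arose in female mice of an F1 hybrid of BALB/c and C57BL/6J, after adenovirus carrying Cre recombinase (Ad-Cre) was injected into the mammary gland at 10 to 12 weeks of age. Recombination left mammary epithelial cells with the Trp53 R172H allele and no other functional allele (MaP R172H/-), with the R245W allele and no other (MaP R245W/-), or with no Trp53 (MaP -/-), so that every group lacked wild-type p53 in the recombined cells. Cells that Ad-Cre did not reach, among them most of the stroma, kept wild-type Trp53. A Rosa26 LSL-TdTomato/+ reporter was present in 5 of the 14 Met-high and 1 of the 4 Met-low tumors, and the other mice are labelled without it. The 18 tumors came from 16 mice, since the MaP -/- mice JM663 and JM833 each gave 2 tumors, all Met-high. For JM779-T1 and JM836-T1 the tumor number in the labels differs from that in the text of the study, so which tumor of these MaP -/- mice was sequenced is in doubt, and the labels are used here. The MaP R172H/- libraries were read on a HiSeq instrument and all others on a NovaSeq instrument, and this genotype and the instrument cannot be told apart. Genotype was a covariate in the fit of all tumors and MaP R172H/- and MaP R245W/- were also fitted alone.

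Met is the receptor tyrosine kinase for hepatocyte growth factor (HGF), a ligand that fibroblasts and other mesenchymal cells secrete as an inactive precursor and that serine proteases activate at the cell surface. The active receptor recruits adaptors such as Gab1 and Grb2 and signals through the RAS-ERK and PI3K pathways to drive growth, scattering and branching of epithelial cells. In mouse mammary tumors that lack p53, amplification of the Met locus is a known event.

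Sequencing gave 23113578 to 37365062 counts per tumor. Trp53, the targeted gene, was at 9.43 to 21.6 CPM in the 6 MaP -/- tumors and at 27.1 to 59.0 CPM in 9 of the 12 tumors labelled with a mutant allele. The libraries labelled MaP R172H/- YZ11 (10.8 CPM) and MaP R245W/- RM0014 (9.09 CPM) and JM1233 (11.4 CPM) lay within or below the range of the MaP -/- tumors, and the main counts are also given without these 3 libraries. Levels of all genes other than Met are given as CPM after normalization by TMM, which scales libraries to each other by the trimmed mean of their log ratios, and fold changes are Met-high over Met-low on the log2 scale ± the standard error (SE).

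Met ranged from 56.4 CPM in YZ7 to 16205 CPM in JM663-T1, where it took 1.62% of all counts. In the MaP R172H/- group, Met was at 56.4 and 222 CPM in YZ7 and YZ4 and at 7551, 9016, 10769, 11505 and 12719 CPM in YZ6, YZ2, YZ11, YZ10 and YZ3. In the MaP R245W/- group it was at 442 and 758 CPM in JM1126 and JM1233 and at 4719, 9423 and 10971 CPM in JM1564, RM0014 and JM1133. The 6 MaP -/- tumors lay between 2624 CPM in JM833-T2 and the highest level of the series. The median was 9219.7 CPM in the Met-high class and 332 CPM in the Met-low class, a ratio of 27.8. The nearest tumor above the threshold was JM833-T2 at 2624 CPM and the nearest below was JM1233 at 758 CPM. All MaP -/- tumors were Met-high, so no comparison of classes could be made inside that genotype. With genotype in the fit, the fold changes therefore come from the MaP R172H/- and MaP R245W/- tumors. The 6 MaP -/- tumors enter through normalization, the filter and the estimate of the spread, also where tumors were left out in turn. Levels, medians and overlaps of the Met-high class are given over all 14 tumors, so they can differ from the fold change.

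**Figure D1:**
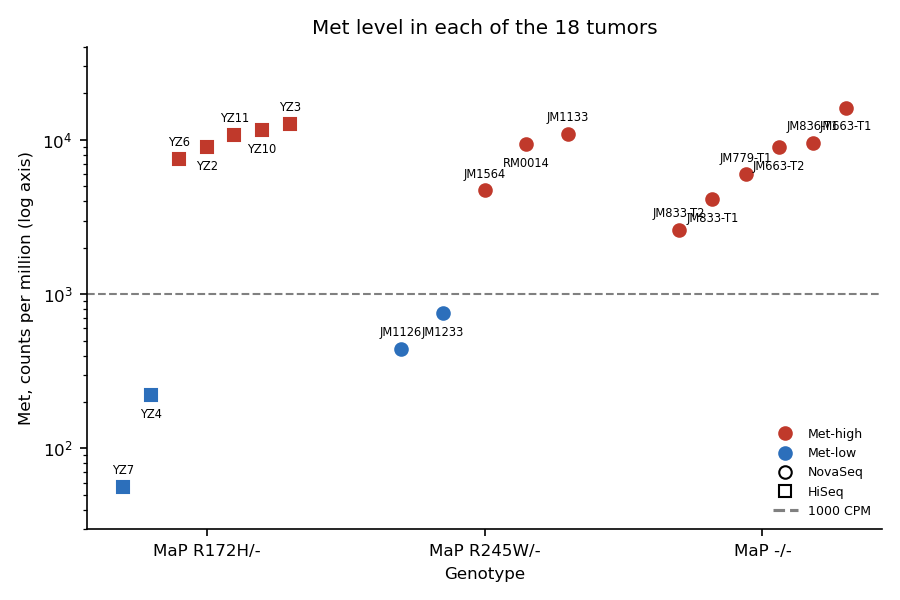
Met level in CPM (log axis) of each tumor by genotype, with Met-high tumors in red, Met-low tumors in blue, HiSeq libraries as squares and NovaSeq libraries as circles. The 14 red points lie between 2624 and 16205 CPM and the 4 blue points between 56.4 and 758 CPM, on either side of the dashed line at 1000 CPM.

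Met lies on chromosome 6 of GRCm39 at chr6:17463749-17573979, on the plus strand. The genes next to it were also high in most Met-high tumors, in combinations that differed from tumor to tumor. Of 10 protein-coding genes tested within 1 Mb of Met, 8 had a log2 fold change above 0 and the median was 3.54, beside a median of -0.07 over the 15196 protein-coding genes tested. Capza2 and St7 were the members of this group that passed the test, called here at a Benjamini-Hochberg false discovery rate (FDR) of at most 0.05 in edgeR's quasi-likelihood test with an absolute log2 fold change of at least 1. By this rule 1.26% of all protein-coding genes were higher and 4.27% were lower in Met-high tumors. Among 16 genes at 1 to 5 Mb the median was 0.80 and none passed. At 5 to 20 Mb the median of 108 genes was 0.52, with 1 gene higher (Cpa1) and 3 lower (Flnc, Cpa4 and Ptn). Over the remaining 653 genes of chromosome 6 the median was 0.05, and over the 14409 genes of other chromosomes it was -0.08.

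Capza2, which encodes the alpha 2 subunit of the actin capping protein CapZ and begins 0.0623 Mb beyond the end of Met, was at 154 to 14605 CPM (median 5132) in Met-high tumors and at 143, 204, 492 and 806 CPM in YZ4, YZ7, JM1233 and JM1126. In 12 of the 14 Met-high tumors it exceeded every Met-low tumor, and JM663-T1 (312 CPM) and YZ2 (154 CPM) were the exceptions. Its log2 fold change was 4.45 ± 0.91 (SE, FDR = 0.0151 in edgeR, at most 0.0401 whichever tumor was left out), with 4.77 within MaP R172H/- (FDR = 0.122) and 4.06 within MaP R245W/- (FDR = 0.0257). St7, a gene described as a suppressor of tumorigenicity, was at 11.6 to 719 CPM (median 171) in Met-high tumors and at 13.4, 18, 30.5 and 34.2 CPM in YZ4, YZ7, JM1126 and JM1233. The ranges overlapped through the same 2 tumors, JM663-T1 and YZ2. St7 had a log2 fold change of 3.73 ± 0.93 (FDR = 0.0293 in edgeR), and it lost the call without any 1 of the Met-low tumors, with an FDR of 0.0709 without JM1233.

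The other side of Met holds Cav1 and Cav2, which encode the membrane scaffold proteins caveolin 1 and 2, and Tes, which encodes the focal adhesion protein testin. These genes were not called across the class, and each was high in some Met-high tumors and not in others. Tes was at 9607 CPM in JM663-T1, 9119.6 in JM836-T1, 8675 in RM0014 and 8490.2 in YZ3, but at 80.4 CPM in YZ6, 148 in YZ2 and 164 in JM1133, and its Met-low levels were 75.3 to 776 CPM (log2 fold change 3.92 ± 1.5, FDR = 0.119 in edgeR). Cav2 had a log2 fold change of 3.36 ± 0.98 and an FDR of 0.0508, just outside the threshold. Cav1, although closer to Met than Cav2, was high in JM663-T2 (10458 CPM) and JM779-T1 (10426 CPM), while the other 12 Met-high tumors had 19.9 to 485 CPM and the Met-low tumors 101 to 646 CPM.

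Counting a gene as raised in a tumor at 4 times the Met-low median or more, a threshold chosen after the values were seen, Capza2 was raised in 12 Met-high tumors, Tes and Cav2 in 10, St7 and Cftr in 9, Cttnbp2 in 6 and Lsm8 in 4. Cftr, which encodes the chloride channel CFTR, reached 312 CPM in JM1564 against 0.792 to 4.32 CPM in Met-low tumors. Fam3c, a secreted factor 4.73 Mb from Met, reached 5406 CPM in JM836-T1 and 2961 CPM in YZ6, with 92.5 to 144 CPM in the Met-low tumors, and its neighbour Tspan12, encoding a tetraspanin, was also highest in these 2 tumors. Mdfic, on the opposite side, reached 1232 CPM in YZ10. For counts per tumor, 7 neighbours within 1.5 Mb were compared, taken because they were raised in any Met-high tumor and had a Met-low median of at least 5 CPM. A difference between the classes in such counts follows in part from this choice. In YZ2 the only raised gene among the 7 neighbours compared was Cttnbp2, and in YZ6 it was Capza2. Met-low tumors were not free of such values, since Tes was raised in JM1126 and Cttnbp2 in YZ7. The 2 tumors of mouse JM663 shared raised Tes and Cav2 but differed in Capza2 (312 CPM in JM663-T1 and 5059.6 CPM in JM663-T2) and in Cav1. DNA copy number was not analysed here, and its part in these levels was not tested.

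**Figure D2:**
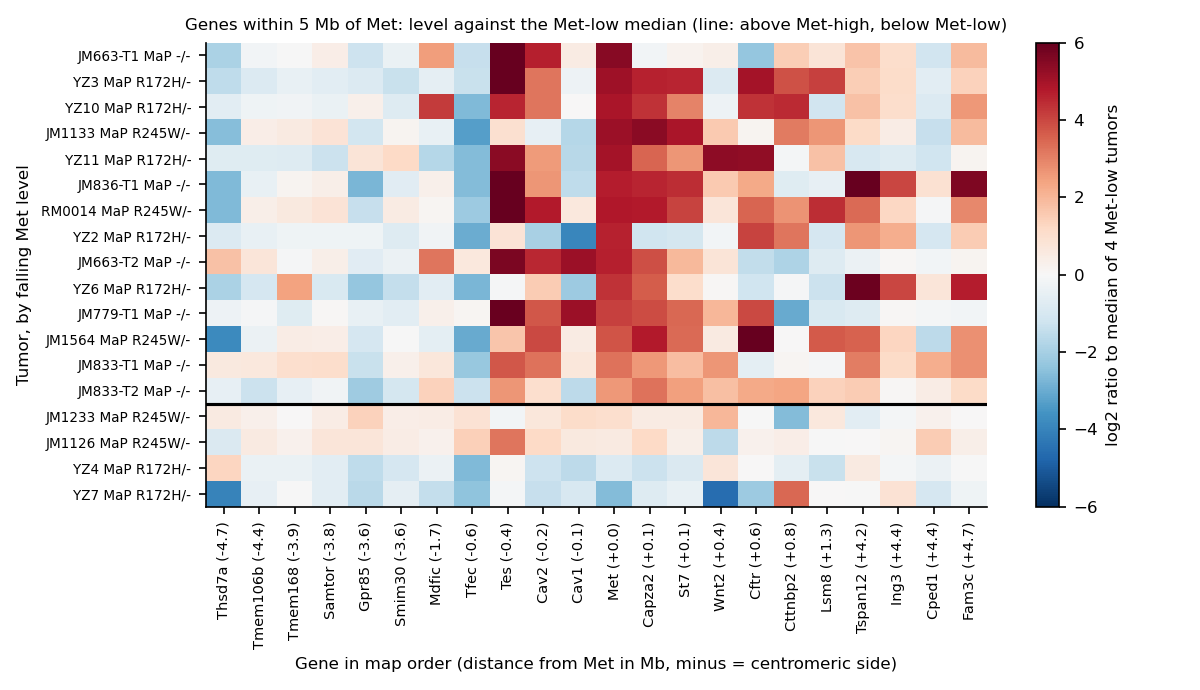
log2 ratio of each gene within 5 Mb of Met to its median in the 4 Met-low tumors, with tumors in rows by falling Met level and genes in map order with their distance in Mb from Met; colors are cut at 6 in either direction, and genes with a Met-low median under 1 CPM are left out. Red in the Capza2 column covers 12 of the 14 Met-high rows, while Tes, Cav2, Cftr, Tspan12 and Fam3c are red in different subsets of them.

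Across the genome, 192 protein-coding genes were higher and 649 lower in Met-high tumors. With no threshold on the fold, 323 were higher (2.13%) and 781 lower (5.14%). In 24 genes every Met-high tumor lay above every Met-low tumor (0.158% of genes tested), and in 55 every Met-high tumor lay below (0.362%), of which 16 and 35 were called. In 187 of the 192 higher genes all 4 Met-low tumors lay below the Met-high median, and in 488 of the 649 lower genes all 4 lay above it. These genes were called on the difference between the same classes, so such counts follow in part from the call. In 285 of the lower genes 1 Met-low tumor held more than 50% of the summed Met-low level, and YZ7 was the highest Met-low tumor for 321 of them. Within MaP R172H/-, 25 genes were higher (0.19%) and 173 lower (1.32%). Within MaP R245W/-, 296 were higher (2.23%) and 519 lower (3.91%). With the NovaSeq tumors alone, MaP -/- tumors included, 3 were higher (0.0203%) and 2 lower (0.0135%). The fold changes of both fits come from the MaP R245W/- tumors, and the MaP -/- tumors add to normalization, the filter and the spread. Calls within MaP R245W/- thus rest on a spread from 5 tumors, and few genes were called with the spread of all NovaSeq tumors. The test of the difference between the class effects in MaP R245W/- and MaP R172H/- gave 0 protein-coding genes at an FDR of 0.05 in edgeR (0.0%), with 2914 of 15196 at an unadjusted p below 0.05. Tumors of 1 mouse are not independent, and no label says more of how the others relate, so the p-values measure the spread between these tumors. The counts moved with single tumors: without JM1233, 57 genes were higher and 477 lower, without YZ4 the higher genes were 321, and without the 3 mutant-labelled libraries of low Trp53, 13 were higher and 135 lower.

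Interferon-stimulated genes formed the list with the most calls. These genes are switched on by type I and type II interferons, and encode antiviral enzymes, nucleic acid sensors and chemokines. Of 31 members tested, 12 were higher in Met-high tumors and none lower, beside 1.26% of all genes higher. All 31 had a log2 fold change above 0, with a median of 1.92, while 45.7% of all genes lay above 0. In a bulk tumor, fewer cells of a type and less RNA per cell cannot be told apart, for these and for all later genes. The summed level of the list was 1382 to 7743 CPM in Met-high tumors (median 3042) and 719, 879.5, 1349 and 2003 CPM in JM1126, YZ7, JM1233 and YZ4, so that the classes overlapped through YZ4.

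Among the effectors, Rsad2, the radical SAM enzyme viperin that makes a chain-terminating nucleotide, was at 42.0 to 235 CPM (median 75.0) in Met-high tumors and at 6.78, 12.3, 22.4 and 30.8 CPM in YZ7, JM1233, YZ4 and JM1126. Every Met-high tumor lay above every Met-low tumor. Its log2 fold change was 2.60 ± 0.63 (FDR = 0.0273 in edgeR), with 2.78 within MaP R172H/- and 2.30 within MaP R245W/-. Oasl1, a 2'-5'-oligoadenylate synthetase-like protein without synthetase activity, was at 20.4 to 211 CPM (median 49.4) in Met-high tumors and at 3.61 to 20.2 CPM in Met-low tumors (log2 fold change 2.64 ± 0.61, FDR = 0.0229). Its classes also did not overlap, by a margin of 20.2 CPM in YZ4 to 20.4 CPM in the lowest Met-high tumor. Bst2, the membrane protein tetherin that holds back budding virions, had a log2 fold change of 2.41 ± 0.60 (FDR = 0.0302) and overlapped through YZ7 (65.6 CPM).

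Sensors and regulators were also among the called members. Dhx58, which encodes the RIG-I-like receptor LGP2, was at 17.3 to 95.9 CPM (median 34.5) in Met-high tumors and at 8.30, 9.88, 13.1 and 17.9 CPM in JM1233, JM1126, YZ7 and YZ4. YZ4 reached the lowest Met-high tumors, and the log2 fold change was 2.09 ± 0.47 (FDR = 0.0201 in edgeR). Irf7, the transcription factor that amplifies interferon production, had a log2 fold change of 2.44 (FDR = 0.0362), and Usp18, a protease that removes ISG15 and restrains receptor signaling, had 2.54 (FDR = 0.0391). Ifit1, Ifit2 and Ifit3, which bind viral RNA, had 2.84, 2.27 and 3.0, and Cxcl10, a chemoattractant of T cells, had 2.43 (FDR = 0.0435). The remaining called members were Zbp1 (1.99), a sensor of Z-form nucleic acid, and Oasl2 (1.94). Isg15 (1.92, FDR = 0.0625) and Mx1 (2.06, FDR = 0.0710) did not pass, nor did B2m, the light chain of MHC class I, a gene of another list (1.08, FDR = 0.0966).

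The interferon calls depended on which tumors entered the fit. The median log2 fold change of the 31 genes was 1.75 within MaP R172H/-, on the HiSeq instrument alone. It was 1.99 within MaP R245W/- and 2.03 with the NovaSeq tumors alone, both from the same MaP R245W/- tumors. In each fit 30 of 31 lay above 0. No member passed in these 3 fits, where the smallest FDR in edgeR was 0.0866 for MaP R172H/-, 0.0548 for MaP R245W/- and 0.0753 for the NovaSeq tumors, nor with a Met threshold of 500 CPM (smallest FDR 0.127). Without JM1233 no member passed either, although the median was 1.98, and without YZ4 there were 14. Without YZ7 there were 2 called members, without JM1126 3, and without the 3 mutant-labelled libraries of low Trp53 0, with a median of 1.78. The level also differed among Met-high tumors, as JM836-T1, JM779-T1, JM1564, RM0014 and JM833-T2 had 0 or 1 of the 31 genes above the Met-high median and JM663-T1 and JM1133 had all 31.

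Promoters of 5 called members are shown to place these genes beside the element through which interferons act on them. The sequences come from RefSeq (GRCm38.p6) and run from 250 bases before to 50 bases after the annotated start, 5′ to 3′ on the strand of the gene. Capitals mark GAAA, 2 bases of any kind and GAAA again, or TTTC, 2 bases and TTTC where the match is on the other strand, a core of the interferon-stimulated response element; overlapping matches are joined.
Rsad2, chr12:26456403-26456702, minus strand: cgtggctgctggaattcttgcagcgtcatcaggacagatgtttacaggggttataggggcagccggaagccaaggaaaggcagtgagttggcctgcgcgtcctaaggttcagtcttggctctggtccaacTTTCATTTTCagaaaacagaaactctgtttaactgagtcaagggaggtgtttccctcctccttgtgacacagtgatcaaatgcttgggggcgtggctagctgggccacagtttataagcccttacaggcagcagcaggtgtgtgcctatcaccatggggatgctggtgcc
Ifit3, chr19:34583279-34583578, plus strand: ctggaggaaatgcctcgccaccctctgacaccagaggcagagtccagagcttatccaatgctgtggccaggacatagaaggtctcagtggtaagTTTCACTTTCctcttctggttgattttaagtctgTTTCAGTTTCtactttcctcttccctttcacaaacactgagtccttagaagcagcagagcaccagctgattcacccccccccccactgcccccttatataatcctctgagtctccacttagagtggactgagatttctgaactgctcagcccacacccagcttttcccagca
Ifit1, chr19:34640639-34640938, plus strand: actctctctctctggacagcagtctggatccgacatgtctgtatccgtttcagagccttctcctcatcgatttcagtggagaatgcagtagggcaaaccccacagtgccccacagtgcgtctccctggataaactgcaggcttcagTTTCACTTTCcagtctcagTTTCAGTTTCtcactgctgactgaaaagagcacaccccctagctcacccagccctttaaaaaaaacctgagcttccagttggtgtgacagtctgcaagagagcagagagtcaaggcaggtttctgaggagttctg
Bst2, chr8:71537423-71537722, minus strand: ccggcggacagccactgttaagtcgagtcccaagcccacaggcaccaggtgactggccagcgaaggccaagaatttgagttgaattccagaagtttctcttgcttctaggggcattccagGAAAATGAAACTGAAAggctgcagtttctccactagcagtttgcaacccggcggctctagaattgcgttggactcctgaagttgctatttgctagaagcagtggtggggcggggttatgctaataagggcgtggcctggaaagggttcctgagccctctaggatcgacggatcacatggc
Oasl1, chr5:114922990-114923289, plus strand: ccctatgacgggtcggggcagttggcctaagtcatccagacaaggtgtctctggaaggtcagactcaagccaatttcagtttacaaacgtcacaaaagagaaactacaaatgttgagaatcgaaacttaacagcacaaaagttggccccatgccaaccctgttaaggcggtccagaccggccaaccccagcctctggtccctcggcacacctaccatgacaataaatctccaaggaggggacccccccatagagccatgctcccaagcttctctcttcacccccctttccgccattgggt

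Rsad2 had 1 match, which began 120 bases before the start. Ifit3 had 2, beginning 156 and 122 bases before it, and Ifit1 had 2, at 104 and 85 bases. The 2 matches of Bst2 overlapped each other and began 130 and 124 bases before the start. Oasl1, one of the members with classes that did not overlap, had no match in its window, which says only that these letters are absent there. Of 9 called interferon-stimulated genes with a promoter in the table, 5 held a match (55.6%), and of the 21 tested members with a promoter 12 did (57.1%). The share was 3.99% over all 27025 genes with a promoter, 4.76% over the 126 other called higher genes with a promoter and 3.35% over the 478 lower genes with a promoter. The 6 matches among other higher genes were Etv6, Ifit3b, Ifitm3, Ncoa7, Oas1g and Phf11a, of which Ifit3b, Ifitm3 and Oas1g belong to interferon-stimulated families.

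**Figure D3:**
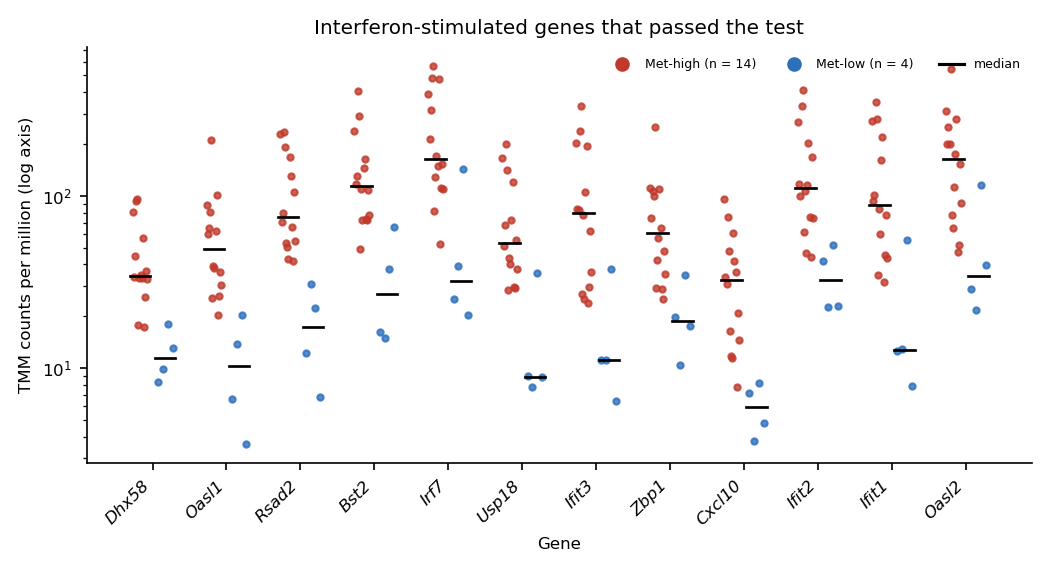
TMM-normalized CPM (log axis) of the 12 interferon-stimulated genes that passed the test, by smallest p, in 14 Met-high (red) and 4 Met-low (blue) tumors, with bars at the medians. Every red median lies above every blue median of its gene, and for Oasl1 and Rsad2 the points of the classes are separate.

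Genes that RAS-ERK signaling induces or that restrain it were higher only in part. Of 38 members tested, 6 were higher (beside 1.26% of all genes) and none lower, and the median log2 fold change was 0.35. Kcnn4, an intermediate-conductance potassium channel, was at 43.3 to 617 CPM (median 190.2) in Met-high tumors and at 37.6, 43.3, 73.7 and 123 CPM in YZ4, JM1233, YZ7 and JM1126. Low values in JM663-T2 and JM779-T1 (43.3 and 79.7 CPM) made the classes overlap. Its log2 fold change was 2.22 ± 0.43 (FDR = 0.0126 in edgeR), at 2.11 within MaP R172H/- and 2.34 within MaP R245W/-, and it was called whichever tumor was left out. Phlda1, a pleckstrin homology domain protein, was at 7.85 to 54.0 CPM against 3.94 to 12.2 CPM (log2 fold change 2.40 ± 0.47, FDR = 0.0126, and 0.0237 within MaP R172H/-).

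The ETS factors Etv1 (2.07 ± 0.54, FDR = 0.0346 in edgeR) and Etv4 (1.08, FDR = 0.0490), the ERK phosphatase Dusp6 (1.33, FDR = 0.0425) and the immediate early gene Ier2 (1.03, FDR = 0.0363) also passed. Dusp6 was at 126 to 612 CPM in Met-high tumors, and JM1126, with 371 CPM, lay in the middle of that range while YZ7, YZ4 and JM1233 had 119.8, 134 and 160.3 CPM. The feedback inhibitors Spry1 (0.48), Spry2 (0.72) and Spry4 (-0.02) and the early genes Fos (0.05) and Egr1 (0.31) did not pass. JM1126 stood apart among Met-low tumors, with a summed level of 4883 CPM against 1910 to 4200 CPM in the Met-high class and 1712 to 2119 CPM in the other Met-low tumors. The list median was 1.03 within MaP R172H/- and -0.21 within MaP R245W/-, where JM1126 is 1 of the 2 Met-low tumors. Without JM1233, 2 members were higher, and without the 3 libraries of low Trp53, 1. The 45 adaptors and signaling proteins below Met, such as the docking protein Gab1, gave no call in either direction and a median of -0.03.

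On the side of the ligand, Hgf was at 5.38 to 89.7 CPM (median 12.3) in Met-high tumors and at 2.82, 19.8, 33.1 and 43.3 CPM in YZ7, YZ4, JM1126 and JM1233. The classes overlapped widely, and the log2 fold change of -1.16 ± 0.59 did not pass (FDR = 0.239 in edgeR). St14, encoding the membrane protease matriptase that can activate HGF, had a log2 fold change of 1.77 ± 0.69 (FDR = 0.127), and Hpn, encoding the protease hepsin, had 1.96 ± 0.79 (FDR = 0.134). The inhibitors of these proteases had 1.64 ± 0.56 for Spint1 (FDR = 0.0851) and 1.44 ± 0.67 for Spint2 (FDR = 0.192). These 4 epithelial genes did not pass. Hgfac, the HGF activator, passed as lower through JM1126, where it was at 77.2 CPM against 0.264 to 2.05 CPM in the other Met-low tumors and at most 0.925 CPM in Met-high tumors, and without JM1126 its log2 fold change was -2.13 (FDR = 0.0794). Sema5a, encoding a semaphorin, rose by 1.54 ± 0.43 on the log2 scale (FDR = 0.0435), and Plxnb3, encoding its receptor plexin B3, was lower through YZ7 at 68.5 CPM, with a log2 fold change of -0.72 without YZ7 (FDR = 0.239).

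Of 48 other receptor tyrosine kinases tested, none passed as higher and 5 were lower (beside 4.27% of all genes), with 0 called without the 3 libraries of low Trp53, and the median log2 fold change was -0.57. Mst1r, which encodes RON, the receptor of the same family as Met, was at 0.587 to 15.0 CPM (median 1.78) in Met-high tumors and at 2.72, 8.09, 11.8 and 13.0 CPM in JM1233, JM1126, YZ4 and YZ7. The overlap came from JM833-T1 at the top of the Met-high class and from JM1233 at the bottom of the Met-low class. The log2 fold change was -2.53 ± 0.55 (FDR = 0.0177 in edgeR), -2.83 within MaP R172H/- (FDR = 0.0153) and -2.19 within MaP R245W/- (FDR = 0.0955), and Mst1r was called whichever tumor was left out. Ephb2, a receptor for ephrin B ligands, was at 1.81 to 39.9 CPM (median 5.04) in Met-high tumors and at 25.3, 47.9, 58.9 and 69.7 CPM in JM1126, YZ4, JM1233 and YZ7. It fell by 3.33 ± 0.64 on the log2 scale (FDR = 0.0113) and passed within MaP R172H/- (FDR = 0.0293) and within MaP R245W/- (FDR = 0.0215).

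Axl, a receptor linked to mesenchymal cells, had a log2 fold change of -1.59 (FDR = 0.0285 in edgeR, 0.0654 without JM1233), and Pdgfrb, a receptor of pericytes and fibroblasts, had -1.14 (FDR = 0.0229). Ephb1 (-1.59, FDR = 0.0470) was the fifth. Each Met-low tumor had kinases above every Met-high tumor, and these were shared in part. Pdgfrb was above in JM1233 (340 CPM) and JM1126 (525 CPM), against at most 189 CPM in Met-high tumors. The receptor Ror2 was above in JM1126 (25.9 CPM) and YZ4 (24.5 CPM), against at most 13.7 CPM. Fgfr3 was above in YZ4 (79.3 CPM) and in YZ7. The kinase furthest above differed between the tumors. YZ7 was furthest above for Fgfr4 (14.6 CPM against at most 1.32 CPM), and also had Insr, the insulin receptor, at 1464 CPM against at most 232 CPM in Met-high tumors, and Fgfr3 at 125 CPM against at most 25.5 CPM. YZ4 had Fgfr2, a fibroblast growth factor receptor, at 229.8 CPM against at most 55.2 CPM. In JM1126 the kinase furthest above was Ret, the receptor of the GDNF family, at 69.2 against at most 11.7 CPM, and in JM1233 it was Csf1r, a receptor of macrophages, at 942 against at most 367 CPM. These genes were picked by the size of the excess over the highest Met-high tumor. The share of kinases above every Met-high tumor was 22.9% in YZ4, 27.1% in JM1126, 18.8% in JM1233 and 16.7% in YZ7, beside 8.52%, 13.6%, 11.2% and 19.4% of all genes.

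Basal and myoepithelial genes mark the contractile outer layer of the mammary duct. Of 26 tested, 6 were lower in Met-high tumors (beside 4.27% of all genes) and none higher, 25 had a log2 fold change below 0 and the median was -1.86, with -1.99 within MaP R172H/- and -1.71 within MaP R245W/-. Within MaP R172H/- 4 members were lower and within MaP R245W/- 2, and 2 were lower without the 3 libraries of low Trp53. The summed level was 438 to 2918 CPM in the Met-high class and 1182, 4337, 7113 and 14892 CPM in JM1233, YZ7, YZ4 and JM1126, so that JM1233 lay inside the Met-high range. Acta2, smooth muscle actin, was at 12.8 to 221 CPM (median 99.5) in Met-high tumors and at 459, 542, 1075 and 1154 CPM in JM1233, JM1126, YZ4 and YZ7. Every Met-low tumor lay above every Met-high tumor. The log2 fold change was -2.77 ± 0.51 (FDR = 0.00968 in edgeR), it passed within both genotypes (FDR = 0.0204 and 0.0233), and it was called whichever tumor was left out.

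Cnn1, which encodes the actin-binding protein calponin 1, was at 0.790 to 23.1 CPM (median 4.26) in Met-high tumors and at 11.6, 34.7, 56.0 and 159 CPM in JM1233, JM1126, YZ4 and YZ7 (log2 fold change -3.52 ± 0.74, FDR = 0.0158 in edgeR). Trp63, the p53 relative that specifies basal cells, was at 188, 119.7 and 51.8 CPM in YZ7, YZ4 and JM1233, but at 1.02 CPM in JM1126, below every Met-high tumor. Its log2 fold change of -3.61 ± 0.91 (FDR = 0.0305) had an FDR of 0.161 without JM1233. Myh11, smooth muscle myosin, had -3.12 (FDR = 0.0314), the Notch ligand Jag2 -1.57 (FDR = 0.0379) and the stem cell receptor Lgr5 -2.54 (FDR = 0.0465). The basal keratins were highest in YZ4, where Krt5 was at 440.3 CPM and Krt17 at 634 CPM, and did not pass. Acta2, Cnn1 and Myh11 are also expressed by pericytes and vascular smooth muscle, and their source in these tumors was not tested. Pericyte and fibroblast markers, of which none of 20 lay above 0, had a median of -1.16, with -0.29 within MaP R172H/- and -2.27 within MaP R245W/-.

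Junction and epithelial identity genes leaned the other way, with a large spread inside both classes. All 36 had a log2 fold change above 0, with a median of 1.64 and 1 was called, beside 1.26% of all genes, with none called without JM1233. Cdh1, E-cadherin, was at 8.11 to 939 CPM (median 456) in Met-high tumors and at 40.3, 216, 332 and 389.9 CPM in JM1233, YZ7, JM1126 and YZ4, and did not pass (log2 fold change 1.10 ± 0.68, FDR = 0.334 in edgeR). The lowest tumor of all was Met-high: JM779-T1 had 8.11 CPM of Cdh1, 10.2 CPM of Epcam and 4515 CPM of the intermediate filament Vim, while the other 13 Met-high tumors had 177 to 939 CPM of Cdh1. The summed level of the list was 212 to 9511 CPM in the Met-high class and 483, 928, 2879 and 4660.3 CPM in JM1233, YZ7, JM1126 and YZ4. Among luminal genes, Xbp1, a transcription factor of secretory cells, rose by 1.53 on the log2 scale (FDR = 0.0391) and Tbx3, a transcription factor of the luminal lineage, fell by 2.76 (FDR = 0.0433), with 15 of 24 above 0. These calls were 4.17% of the list in each direction, beside 1.26% of all genes higher and 4.27% lower.

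Of 22 factors and genes of the epithelial-mesenchymal transition, 5 were lower in Met-high tumors (beside 4.27% of all genes) and none higher, and 1 was lower without the 3 libraries of low Trp53. Snai2, the repressor Slug, was at 0.858 to 6.94 CPM (median 1.81) in Met-high tumors and at 4.93, 6.51, 13.2 and 20.5 CPM in JM1126, JM1233, YZ7 and YZ4. JM1126 and JM1233 lay inside the Met-high range, and the log2 fold change was -2.64 ± 0.48 (FDR = 0.00968 in edgeR, called whichever tumor was left out). The repressors Zeb1 (-2.13 ± 0.46, FDR = 0.0173) and Zeb2 (-1.68 ± 0.31, FDR = 0.00976), the matrix protein Sparc (-1.43 ± 0.29, FDR = 0.0139) and the calcium-binding protein S100a4 (-4.94, FDR = 0.0357) were the other members called. Sparc was at 328 to 1290.4 CPM in Met-high and 1202 to 3219.6 CPM in Met-low tumors, with YZ4 inside the Met-high range. The list median was 0.05 within MaP R172H/- and -1.72 within MaP R245W/-, and the difference between genotypes gave no call for any gene. The medians of the fibroblast and pericyte markers, -0.29 and -2.27, were likewise lower within MaP R245W/-, where their summed levels were 18579 and 37909 CPM in JM1233 and JM1126 against 3348 to 9646 CPM in the Met-high class, and their part in this list was not tested. The study classes JM1126 as a sarcoma, JM1233 as a sarcomatoid carcinoma, and YZ4 and YZ7 as adenocarcinomas. Met-high tumors such as JM1133 and RM0014 are also classed as sarcomatoid carcinomas. Whether these markers came from stroma or from tumor cells was not tested. Matrix proteases and their inhibitors had 3 lower members of 29 (10.3%, beside 4.27% of all genes), Mmp19 (-2.11, FDR = 0.0250), Mmp23 (-1.65, FDR = 0.0382) and Timp2 (-1.82, FDR = 0.0434). JM1126 held the highest level of the urokinase gene Plau (4884 CPM against at most 299.7 CPM in Met-high tumors).

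**Figure D4:**
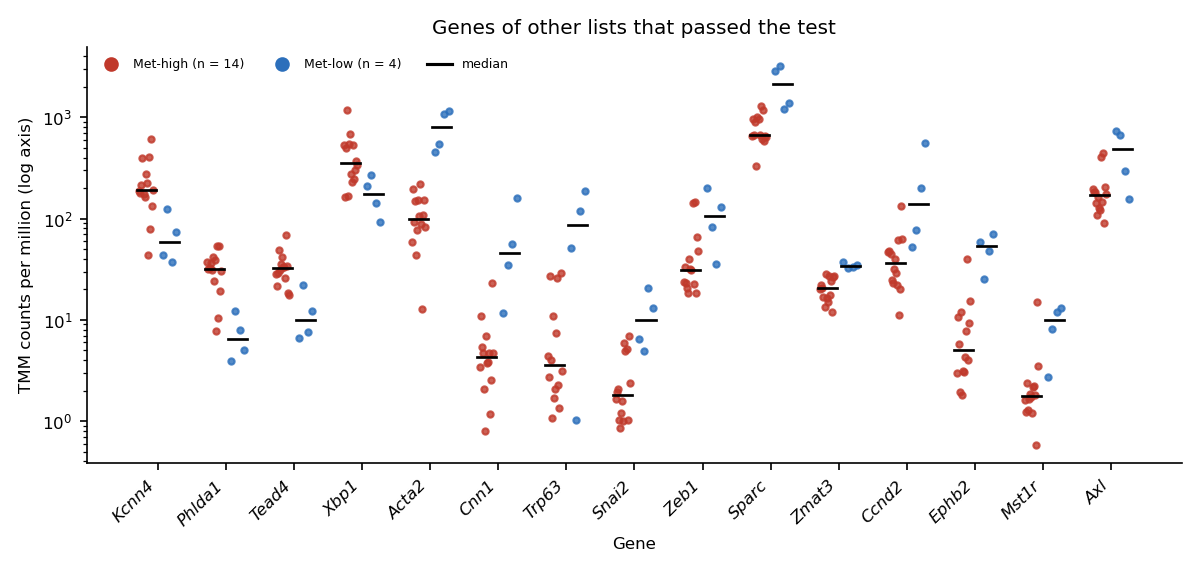
TMM-normalized CPM (log axis) of 15 called genes from the lists on signaling, cell identity and growth, in 14 Met-high (red) and 4 Met-low (blue) tumors, with bars at the medians. Kcnn4, Phlda1, Tead4 and Xbp1 have higher red medians and the other 11 lower ones, and for Acta2 and Zmat3 the points of the classes are separate.

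Targets of p53 were compared because mutant and null tumors lack wild-type p53 in their epithelium. Of 30 tested, 3 were lower (beside 4.27% of all genes) and none higher, and without the 3 libraries of low Trp53 none was called. Zmat3, an RNA-binding protein that p53 induces, was at 11.9 to 28.1 CPM (median 20.6) in Met-high tumors and at 32.8, 33.1, 34.7 and 37.4 CPM in JM1126, YZ4, YZ7 and JM1233. The Met-low values were tightly grouped and all lay above every Met-high tumor. The log2 fold change was -1.07 ± 0.16 (FDR = 0.00429 in edgeR, and at most 0.0122 whichever tumor was left out, with a fold under the threshold in 2 of the 18 fits). Ephx1, an epoxide hydrolase, had -2.07 (FDR = 0.0250) and the stress gene Sesn1 -1.08 (FDR = 0.0323), and both had FDRs over 0.05 without JM1233 (0.0797 and 0.146). Cdkn1a, the p21 cell cycle inhibitor, did not pass (-1.10, FDR = 0.0981). Fibroblasts and other unrecombined cells keep wild-type p53, and the fibroblast and pericyte markers had the negative median given above. Whether these markers came from unrecombined cells, and the part of such cells in the p53 targets, was not tested.

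None of 40 proliferation genes passed. Of these, 31 lay above 0, the list median was 0.23, and Bub1b, a mitotic checkpoint kinase and the member with the smallest p, had 0.65 (FDR = 0.174 in edgeR). Ccnd2, which encodes cyclin D2, was the member of 24 G1 regulators that passed, at 11.3 to 134 CPM (median 36.0) in Met-high tumors and at 53, 77.7, 201 and 552 CPM in JM1233, JM1126, YZ4 and YZ7 (log2 fold change -2.40 ± 0.53, FDR = 0.0192). YZ7 was highest, and both JM1233 and JM1126 lay inside the Met-high range. Cyclin D1 (Ccnd1) had -0.17 (FDR = 0.770). Of the G1 regulators 4.17% were called lower, near the 4.27% of all genes. Tead4, a transcription factor of the Hippo pathway, was at 17.6 to 69.1 CPM (median 32.4) against 6.57 to 21.9 CPM and rose by 1.53 ± 0.37 on the log2 scale (FDR = 0.0268, 0.0656 without JM1233). The Hippo target Axl and the TEAD cofactor Vgll3 (-2.27, FDR = 0.0471) were lower, while Yap1 (-0.11) and Ccn2 (-0.22) did not pass. Of 24 Hippo genes tested 4.17% were higher and 8.33% lower, beside 1.26% and 4.27% of all genes, and the list median was -0.05. In the Wnt list of 44, the receptor Fzd5 (1.81 ± 0.37, FDR = 0.0151), the feedback inhibitor Nkd2 (2.85) and the receptor Fzd7 were among the 6 called, together with Wnt6 (-5.22), Apcdd1 (-2.07) and Lgr5, 3 in each direction. That is 6.82% of the list each way, beside 1.26% of all genes higher and 4.27% lower. Of 32 genes of hypoxia and glycolysis, Pfkfb4 (-1.19) and the glucose transporter Slc2a3 (-1.96) were lower (6.25%, beside 4.27% of all genes). The list median was 0.07.

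Of the 10 largest rises, Capza2 is described above. Pglyrp1, a peptidoglycan recognition protein of neutrophils, was at 1.94 to 156 CPM (median 97.8) in Met-high tumors and at 2.55, 3.10, 4.45 and 6.0 CPM in YZ7, JM1233, JM1126 and YZ4. JM779-T1, the lowest Met-high tumor, lay below all of them and the other 13 above. Its log2 fold change of 4.85 ± 0.81 (FDR = 0.00683 in edgeR) passed within MaP R172H/- (FDR = 0.0150) and within MaP R245W/- (FDR = 0.00962), and whichever tumor was left out. Alkal2, a ligand of the receptors ALK and LTK, was at 0.194 to 84.7 CPM (median 12.9) against 0.149 to 0.768 CPM in Met-low tumors and had the largest rise by the naming rule, 6.44 ± 1.27 (FDR = 0.0128), while its receptors Alk (-1.84, FDR = 0.126) and Ltk (1.14, FDR = 0.493) did not pass. The others were Erich3 (5.37), the adenylyl cyclase Adcy8 (5.20), Gm29695 (4.71), the sodium-coupled sugar transporter Slc5a9 (4.53), the cartilage matrix protein Comp (4.52), the peptide transporter Slc15a1 (4.46), Capza2 and the forkhead factor Foxa3 (4.39). Erich3, Comp, Slc15a1 and Foxa3 lost the call without JM1233, and also without YZ7 or JM1126.

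Neutrophil and macrophage markers gave Lcn2 and Cd14 as higher. Lcn2, lipocalin 2, a siderophore-binding protein of neutrophils and of inflamed epithelium, was at 49.9 to 5325 CPM (median 2528) in Met-high tumors and at 30.7, 35.2, 237 and 592 CPM in JM1126, JM1233, YZ7 and YZ4 (log2 fold change 4.14 ± 0.98, FDR = 0.0250 in edgeR, 0.0694 without JM1233). No other of the 15 neutrophil markers passed (6.67% higher, beside 1.26% of all genes) and 6 lay above 0. Of 20 macrophage markers 1 lay above 0. Cd14, the lipopolysaccharide co-receptor, rose by 1.81 (FDR = 0.0373), which is 5.0% of the list beside 1.26% of all genes. Mrc1, the mannose receptor of macrophages, fell by 2.35 (FDR = 0.0391), which is 5.0% of the list, near the 4.27% of all genes. Without JM1233 neither Cd14 nor Mrc1 was called (FDR = 0.0855 and 0.0976 in edgeR), 7 of 20 markers lay above 0 and the median went from -0.76 to -0.35. The summed level of these markers was 13534 CPM in JM1233 and at most 7332 CPM in Met-high tumors. None of 20 T and NK cell markers passed or lay above 0, and their median was -1.36. B and plasma cell, endothelial, adipocyte and housekeeping genes gave no call, with medians of -0.22, -0.51, -1.73 and -0.05. Some of these directions depended on the covariate, without which the MaP -/- tumors enter the fold change. Without genotype the adipocyte median was 1.40 (16 of 17 above 0) and the B and plasma cell median 1.51 (10 of 12). The neutrophil median was then 0.60 (12 of 15). The median summed adipocyte level was 1149 CPM in Met-high and 319 CPM in Met-low tumors.

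The largest falls were mostly values of 1 or 2 Met-low tumors. Cpa4, a carboxypeptidase (-7.06), was at 88.8 CPM in JM1126 and at most 4.42 CPM in the other Met-low tumors. Azgp1, a secreted glycoprotein (-6.79), the neuronal filament gene Prph (-6.72), the connexin Gjc3 (-6.51), Hecw1 (-6.03) and the potassium channel Kcna2 (-5.69) were high in YZ7, where Gjc3 was at 558 CPM. Muc16, a mucin of epithelial surfaces (-6.75), Fgb, the fibrinogen beta chain (-6.33), and Sprr1a, a cornified envelope protein (-5.96), were highest in YZ4. Nptx1, a neuronal pentraxin, was at 1.04, 8.98, 26.5 and 87.9 CPM in JM1233, YZ4, JM1126 and YZ7 against a Met-high median of 0.302 CPM, with JM1233 inside the Met-high range, and was called whichever tumor was left out (-6.01 ± 0.95, FDR = 0.00502 in edgeR). Among nerve markers, Pmp22, peripheral myelin protein 22, passed as lower (-1.56, FDR = 0.0320 in edgeR). Skeletal muscle markers were a feature of JM1233, whose summed level of 7369 CPM exceeded the 33.5 to 621 CPM of the Met-high class and the 82.4 to 196 CPM of the other Met-low tumors. Of 17 muscle genes tested, Neb, Tnnc1 and Actn2 passed as lower (17.6%, beside 4.27% of all genes). Without JM1233 the list median, -2.0 over all tumors, was -0.32 and none of the 3 passed, nor did they without YZ7.

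**Figure D5:**
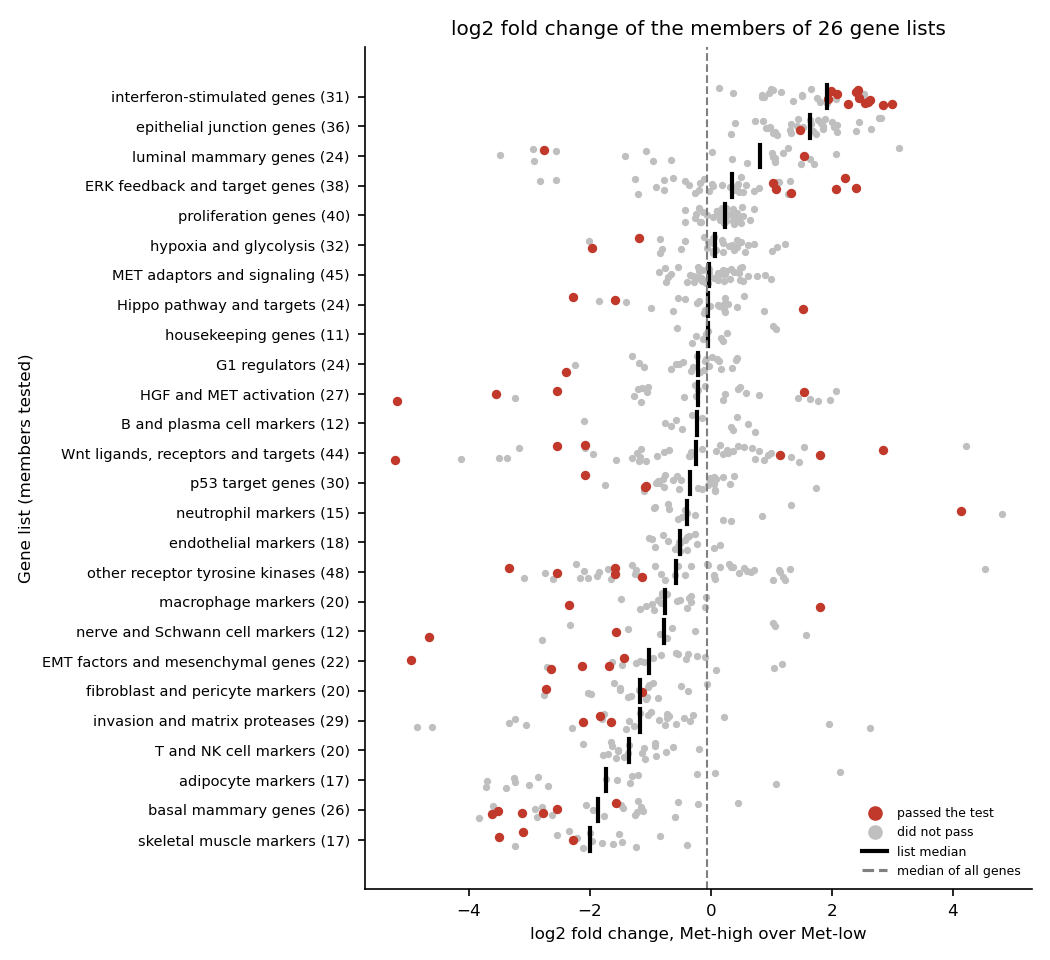
log2 fold change, Met-high over Met-low, of the tested members of 26 gene lists, with called genes in red, other genes in grey, list medians as black bars and the median of all protein-coding genes (-0.07) as a dashed line. Interferon-stimulated genes (median 1.92) have 12 red points, all on the right, and basal mammary genes (median -1.86) have 6, all on the left.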

How the data were processed

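RNA of 18 tumors was sequenced, and the authors deposited 1 table of whole-number read counts per gene, for which the submitters' processing notes name FastQC 0.11.9, STAR 2.7.10b, RSEM 1.3.3 and GRCm39. RSEM estimates counts, and the deposited values are whole numbers. Of 57126 genes, 56620 were matched by identifier to the GENCODE annotation used here, and the other 506 held at most 0.0464% of the counts of a tumor. Spearman correlations between tumors of 1 genotype were 0.852 to 0.971 over 21926 genes, and no library was counted as a duplicate.

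Genotypes came from the labels. The Met classes, the gene lists and the comparisons were chosen with earlier results of these data known. Counts were filtered with filterByExpr by genotype, blind to the Met class, normalized by TMM and fitted with a quasi-likelihood model with genotype as covariate (edgeR 4.0.16, R 4.3.3). Met was removed before the Benjamini-Hochberg adjustment over 22480 genes, and a gene was called at an FDR of at most 0.05 with an absolute log2 fold change of at least 1. The rule for named genes took Hgf, its activating proteases and their inhibitors, Mst1r, the called genes within 5 Mb of Met, the 10 largest changes in each direction among called protein-coding genes with a mean of at least 1 CPM, and from each list the called members up to 4 by smallest p, or else the member with the smallest p. Other genes were named after their values were seen. Some genes that the rule names are not reported here. Alternatives included DESeq2 1.42.0, and leaving out the 3 mutant-labelled tumors of low Trp53 was chosen after seeing the data. Figures used Python 3.11.15 and matplotlib 3.10.9. Total counts of 23113578 to 37365062 set the precision of low genes. The test was tested on simulated data for the comparison of Met classes over 22073 genes, where it recovered 31 of 50 genes raised by 2 and 47 of 50 raised by 4 on the log2 scale, 34 of 49 lowered by 2 and 40 of 42 lowered by 4, and called 12 of 21882 unchanged genes.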

Additional observations from a re-analysis of the deposited data

Results flagged for a closer look

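In 23 of 246 groups of 4 or more tumors of 1 Met class and genotype, or of the Met-low class, 1 tumor lay far from the others for a named gene. For independent groups and genes not chosen by their values, chance would flag about 1 in 20, which is 12.3 of 246. Many named genes were chosen by the size of their change, and some MaP -/- tumors share a mouse. The 12.3 is therefore no more than a rough guide. All levels below are in TMM-normalized CPM. Among the 4 Met-low tumors, YZ7 stood above the others for Prph (119), Hecw1 (112), Kcna2 (65.6) and Plxnb3 (68.5), JM1233 for Actn2 (62.1) and JM1126 for Alkal2 (0.768). Among the 6 MaP -/- tumors, JM779-T1 was far below for St14 (6.37) and Slc5a9 (0.970). JM833-T1 was far above for Mst1r (15.0), Muc16 (5.92) and Apcdd1 (44.0), JM833-T2 for Fcrla (15.5), JM836-T1 for Pdgfrb (189), and JM663-T2 for Hecw1 (1.52) and Sprr1a (3.66). Among the 5 Met-high MaP R172H/- tumors, YZ2 was far below for Capza2 (154). YZ6 stood apart for Alkal2 (40.4), Gjc3 (3.95), Eps15 (72.3) and Wnt6 (1.49), YZ10 for Sesn1 (30.8), YZ3 for Lcn2 (1545) and YZ11 for Retn (2.30).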

How the results depend on the processing

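The counts of 192 higher and 649 lower genes varied more than 1.5 times with several choices. DESeq2 gave 515 higher and 1278 lower genes. Leaving out genotype gave 53 higher genes, and platform in its place gave 53 higher and 295 lower. A Met threshold of 500 CPM, which moves JM1233 to the Met-high class, gave 5 higher and 157 lower genes, while a threshold of 2000 CPM moved no tumor. The NovaSeq tumors alone gave 3 and 2 genes, MaP R172H/- alone 25 and 173, and MaP R245W/- alone 296 higher genes. Without the 3 mutant-labelled tumors of low Trp53, an alternative chosen after seeing the data, there were 13 and 135. Log2 Met as a continuous term gave 362 and 997 genes by FDR alone, the classes gave 323 higher by FDR alone, and a log2 threshold of 2 gave 75 and 370. Some fits held fewer tumors and others changed the call rule. MaP R245W/- alone gave 296 higher genes, while the NovaSeq tumors, which include it, gave 3. The cause of these differences was not tested. Leaving out 1 tumor at a time gave 57 (without JM1233) to 321 (without YZ4) higher and 397 (without YZ2 or YZ7) to 790 (without JM779-T1) lower genes, 1 to 3 called genes within 5 Mb of Met, where the full fit had 2, and 27 (without JM1233) to 83 (without YZ4) called list members, where the full fit had 65. Over the named genes, 2135 values under an alternative kept their direction and side of the threshold, 660 kept the direction and lost the call, 13 gained one, and 1 reversed, Retn, at 0.74 without the genotype covariate. A left-out MaP -/- tumor could move a call through normalization, the filter and the spread, since these tumors do not enter the fold change. No paired analysis was possible because the replicate numbers were given in accession order and the labels pair no tumors across genotypes. The Met-low class holds 4 tumors, and library depth was not varied.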

Other observations

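Among the Met-high tumors, JM663-T2 alone had high levels of 3 neighbouring genes of chromosome 9, a pattern seen after the values were examined. Yap1, the Hippo pathway coactivator (GRCm39 chr9:7932000-8004661), was at 1445 CPM in JM663-T2 and at 87.5 to 217 CPM in the other 17 tumors. Birc2 and Birc3, inhibitors of apoptosis that lie beside it, were at 670.0 and 509.5 CPM in JM663-T2. The other 17 tumors, JM663-T1 from the same mouse included, had 36.9 to 81.5 CPM of Birc2 and 21.8 to 92.2 CPM of Birc3. These levels were not tested.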
